A study of Mus musculus with 12 samples.

Results

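Irradiation of tumors in wild-type (WT) mice was followed in 6 of the 12 samples of the series, taken by the genotype, tumor and therapy named in their labels. The WT IR group held 3 samples of irradiated tumors, 1 each of MC38, Pan02 and KPC. The WT no IR group held 3 samples of tumors of the same models that received no radiation. MC38 is a colorectal cancer line, while Pan02 and KPC are lines of pancreatic ductal adenocarcinoma. All mice were C57BL6, aged 6 to 8 weeks by the labels (the methods give older mice), and carried tumors grown under the skin from injected cells, so the pancreatic lines were not growing in the pancreas. IR was 1 fraction of 8 Gy of X-rays, given once a tumor had passed 200 mm3 by the labels, or measured 250 to 300 mm3 by the study design. RNA of 4 mice was pooled in each sample, 2 of them taken at 12 h and 2 at 18 h (a legend of the study names the earlier time alone), and 100 ng of RNA was hybridized to the Mouse Immunology Panel of nCounter, an assay in which probes with fluorescent barcodes are counted one by one for 561 immune and reference genes. Each combination was thus 1 sample. The 3 tumor models stood as replicates of the IR effect, and no spread between mice could be had. The other 6 samples came from the same tumor models in mice lacking Sirpα, a receptor on macrophages that restrains engulfment, and entered the fit to share its estimate of spread.

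Ionizing radiation breaks DNA, and cells respond through the kinase ATM and the transcription factor p53, which switches on genes of growth arrest and apoptosis such as Cdkn1a. Dying tumor cells also release nucleic acids and other danger signals. These induce interferons, NF-kB targets and chemokines in the tumor and its myeloid cells. Among these chemokines, the ligands of CCR2 draw monocytes into the tumor, and latent TGF-β, which restrains T cells and builds matrix, is released from its complexes after IR. The series asks which inflammatory transcripts move with IR in bulk tumors, where fewer cells of a type and less RNA per cell cannot be told apart.

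The no IR KPC sample stood apart from the other WT samples. It held 21400 net counts, recovered from the steps between its values, while the other 5 held 162908 to 403332. A net count was worth 3.79 normalized counts there, against 0.504 in IR KPC tumors. The value of a count was 1.50 in IR and 0.776 in no IR MC38 tumors, and 0.814 in IR and 0.590 in no IR Pan02 tumors, so the samples of the Pan02 pair were closest in this respect. In no IR KPC tumors, 176 genes lay at the bottom of the range, and a floor of 3 counts amounted to 11.4 normalized counts. Its rank correlation with IR KPC tumors was 0.80 over 561 genes, below the 0.95 of the MC38 pair and the 0.98 of the Pan02 pair. IR KPC tumors correlated at 0.97 with IR Pan02 tumors. Positive controls, brought to the scale of the genes, had a geometric mean of 307 in IR and 308 in no IR KPC tumors but 655 to 826 in the MC38 and Pan02 samples. Levels are therefore compared within a tumor model and not between KPC and the other models.

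Leukocyte content could be checked only in part. Ptprc, the marker of leukocytes, measured 280.6 in IR against 174.2 in no IR MC38 tumors. It measured 434.5 against 436.6 in Pan02 and 201 against 98.6 in KPC tumors. Macrophage markers (6 of 8 on the panel, among them Csf1r and C1qa) summed to 4014 in IR against 2672 in no IR MC38 tumors, 6223 against 4849 in Pan02 and 2627 against 959.5 in KPC tumors. Most of each sum came from C1qa and C1qb, which are also complement genes. Cd14, another member, was higher in IR MC38 tumors (149.7 against 78.8). It was lower by value in IR Pan02 (93.6 against 112.7) and KPC tumors (37.3 against 60.7). All 5 B cell markers together came to 18.8, 25.4 and 20.7 normalized counts in IR and 15.4, 28.7 and 19.0 in no IR MC38, Pan02 and KPC tumors, so B cell transcripts were sparse in every sample. Of the tumor cells themselves the panel says little, since only Muc1 and Ceacam1 of 4 epithelial markers are on it. These summed to no more than 47.8 normalized counts in any sample.

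Across the 3 tumor models, no gene passed the test. Limma on log2(value + 10) of 298 genes, those averaging 50 or more in the WT samples, called 0 genes higher (0%) and 0 lower (0%) in IR than in no IR tumors at a Benjamini-Hochberg adjusted p under 0.05, and the smallest adjusted p was 0.185. At an unadjusted p under 0.05, 65 genes were higher (21.8%) and 1, Gapdh, was lower (0.336%), and edgeR on the recovered counts also called 0 while placing 5 higher and 8 lower at that p. The values leaned upward as a whole. The median log2 fold change of all 298 genes was 0.52, and scaling by the 14 reference genes or by the median ratio brought it to 0.32 and 0.08. Without the KPC samples of both genotypes, 0 genes passed, with 25 higher and 0 lower at an unadjusted p under 0.05. Since no gene passed, the genes that follow are described by their values, and each fold change stands against the median of all genes.

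The response differed between the tumor models in size. In MC38, 97 of 312 genes with a value of at least 50 in either sample were at least 2-fold higher in IR tumors (31.1%) and 1 was lower (0.321%). In Pan02, 10 of 317 genes were higher (3.15%) and 4 were lower (1.26%). In KPC, 110 of 267 were higher (41.2%) and 19 were lower (7.12%), and 42 of these 129 genes had fewer than 10 net counts in the no IR sample. These are ratios of 1 sample to 1 sample, with no replicate check. The excess of higher genes in MC38 remained with reference gene scaling, at 77 higher and 1 lower of 270. After median ratio scaling MC38 had 20 higher and 13 lower, and KPC 71 and 58. That scaling brings the median ratios of the samples level, so it takes out a shift shared by most genes by construction. With reference gene scaling, Pan02 had 5 higher and 6 lower, and KPC 93 higher and 43 lower.

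**Figure D1:**
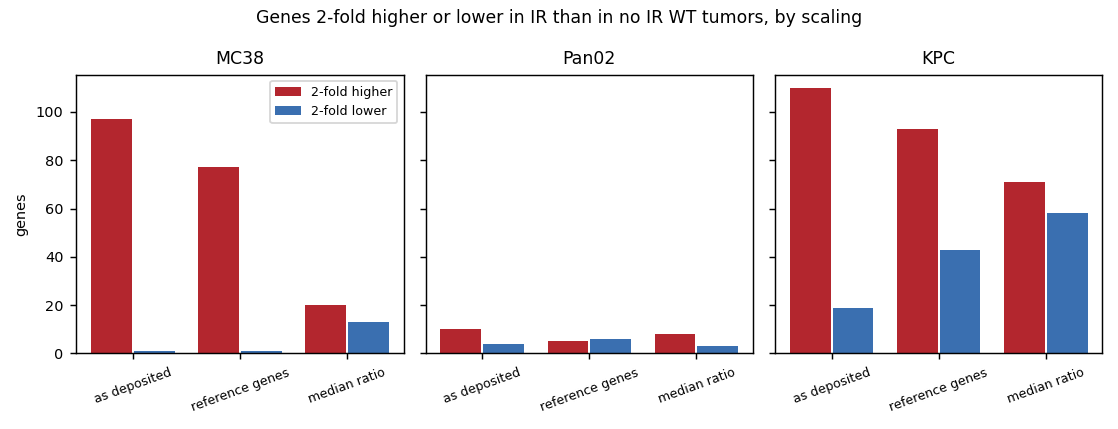
Number of genes at least 2-fold higher (red) or lower (blue) in IR than in no IR WT tumors, for each tumor model and 3 ways of scaling the samples. As deposited, 97, 10 and 110 genes were higher in MC38, Pan02 and KPC. The reference gene scale gave 77, 5 and 93, and the median ratio scale 20, 8 and 71.

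Genes that differed the same way in every tumor model were a minority. Of 298 genes, 126 were higher in IR tumors of all 3 models by any amount (42.3%) and 3 were lower (1.01%). The median ratio scale gave 39 higher (13.1%) and 23 lower (7.72%). A log2 ratio of at least 0.5 in each model was met by 18 genes (6.04%) and by no gene in the lower direction. All 18 stayed above 0 in each model with reference gene scaling, and 14 did with median ratio scaling, where Tapbp, Map4k4, Cd97 and Klra4 did not. With KPC left aside, 26 genes reached 0.5 in both MC38 and Pan02, and these hold the 18 by definition. Among genes with a value of at least 50 in each model, Ccl2 and Cx3cl1 were at least 2-fold higher in all 3 by plain ratio, and Cx3cl1 alone on log2(value + 10), where Ccl2 had 0.98 in Pan02. Klra4, an NK cell receptor gene, as well as Il1b, Socs3 and Cd274, were singled out after their values were seen. Without the KPC samples the fitted log2 fold changes were 1.16 for Socs1 and 1.34 for Il1rn, while those of Cxcl10 (0.97), S100a9 (1.01), S100a8 (0.77) and Cd34 (0.68) lost the most.

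**Figure D2:**
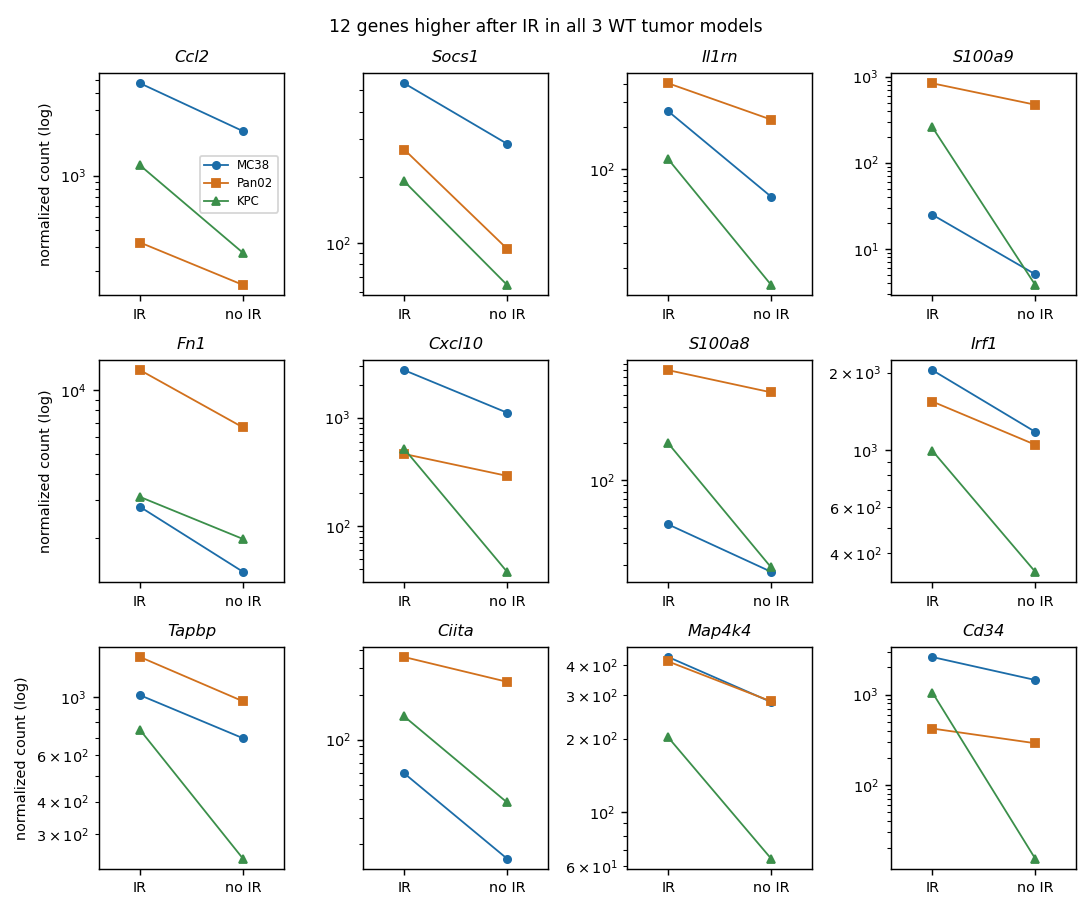
Normalized counts (log axis) in IR (left) and no IR (right) WT tumors for 12 genes averaging 100 or more in the WT samples whose smallest log2 ratio over the 3 tumor models was highest. Every line lies higher at IR; the smallest of these ratios is 0.53, in Pan02, and the steepest lines are those of KPC for Cd34 and S100a9.

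Monocyte chemokines had a positive median log2 ratio in all 3 tumor models. Ccl2, the main ligand of CCR2, measured 4708 in IR and 2108 in no IR MC38 tumors, 325 in IR and 159 in no IR Pan02 tumors, and 1185 in IR and 273 in no IR KPC tumors. Its log2 ratios were 1.16 ± 0.07, 0.98 ± 0.21 and 2.08 ± 0.33 (± 95% counting intervals, which cover counting error only), and the fit across models gave 1.41 ± 0.51 (SE, n = 3 against 3; limma adjusted p = 0.201). The IR sample was the higher one in each pair, and the KPC difference was the widest. Cx3cl1, which binds CX3CR1 on monocytes and NK cells, measured 147 in IR against 53.9 in no IR MC38 tumors, 173 against 72.0 in Pan02 and 54.4 against 3.79 in KPC tumors. The no IR KPC value was the lowest value of that sample, so IR KPC tumors were at least 4.78-fold higher. Its log2 ratios in MC38 and Pan02 were 1.29 and 1.16, and it kept 0.64, 1.08 and 2.16 in the 3 models on the median ratio scale.

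Other members of the group were less uniform. Ccl12, a mouse CCR2 ligand, measured 467 in IR against 502 in no IR MC38 tumors, 510.1 against 169 in Pan02 and 264 against 110.0 in KPC tumors. It was level in MC38 and about as different from no IR in Pan02 (log2 ratio 1.54) as in KPC (1.19), and the fit gave 0.88 ± 0.34 (SE, n = 3 against 3; limma adjusted p = 0.201). Ccl7, a further CCR2 ligand, had log2 ratios of 1.10, 0.83 and 0.16, and Csf1, the growth factor of macrophages, of 0.95, 0.39 and 0.39. Ccl8 was opposite in MC38 and KPC and is given further on. Of the 6 members, 4 were higher at an unadjusted p under 0.05, beside 21.8% of all genes, and 0 passed the adjusted test. Their median log2 ratios were 1.13, 0.91 and 0.79 in MC38, Pan02 and KPC, beside 0.61, 0.14 and 0.83 for all 298 genes.

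Socs1 and Socs3, a pair of feedback inhibitors of cytokine signaling, had higher values in the IR sample of each tumor model, and neither passed the adjusted test. Socs1, which blocks JAK kinases downstream of interferon receptors, measured 539 in IR and 285 in no IR MC38 tumors, 268 in IR and 94.4 in no IR Pan02 tumors, and 192 in IR and 64.5 in no IR KPC tumors. Its ratios were 0.90 ± 0.20, 1.42 ± 0.25 and 1.44 ± 0.61, with a fitted log2 fold change of 1.25 ± 0.28 (SE, n = 3 against 3; limma adjusted p = 0.185), the smallest adjusted p of the panel, shared with Il1rn and Cd274. The 3 IR values lay above their own no IR values by 1.89 to 2.98 times. Socs3, which restrains signaling by the IL-6 family and G-CSF, measured 105 in IR against 38.4 in no IR MC38 tumors, 116 against 50.1 in Pan02 and 41.3 against 7.58 in KPC tumors, with log2 ratios of 1.24, 1.06 and 1.55. Of kinases and factors upstream, Stat3 had log2 ratios of 0.86, 0.15 and 0.54, Jak1 of 0.37, 0.23 and 0.71 and Stat6 of 0.37, -0.02 and 1.05, and the median over 11 members of the JAK-STAT list tested was 0.86, 0.22 and 0.54.

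Il1rn, 1 of the 12 genes whose smallest ratio was highest, had higher values in the IR sample of each tumor model. This gene, which encodes the IL-1 receptor antagonist, measured 258 in IR and 64.0 in no IR MC38 tumors, 408 in IR and 225 in no IR Pan02 tumors, and 118 in IR and 15.2 in no IR KPC tumors. Each IR sample exceeded its partner beyond counting error (log2 ratios 1.86 ± 0.34, 0.83 ± 0.19 and 2.35 ± 0.87), and the fit gave 1.68 ± 0.39 (SE, n = 3 against 3; limma adjusted p = 0.185). Il1b, the cytokine it opposes, measured 27.8 in IR against 15.1 in no IR MC38 tumors, 273 against 133 in Pan02 and 78.1 against 3.79 in KPC tumors, the no IR KPC value being the lowest of that sample. In MC38 its values stood on 18.5 net counts in IR and 19.5 in no IR tumors, a log2 ratio of 0.59 ± 0.62, within counting error. In contrast, Il1r2, a decoy receptor for IL-1 found on neutrophils, was 74.0 in IR and 255 in no IR Pan02 tumors, a log2 ratio of -1.66 ± 0.29, but 21.7 in IR and 3.79 in no IR KPC tumors, where IR tumors were at least 1.90-fold higher. Casp1, which cleaves pro-IL-1β, measured 1443 in IR against 524 in no IR MC38 tumors, 841 against 746 in Pan02 and 670.1 against 15.2 in KPC tumors. Its KPC ratio rests on 4 net counts in the no IR sample.

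Of the 4 neutrophil genes tested, S100a8, S100a9 and Csf3r had higher values in the IR sample of each tumor model, and Il1r2 did not. At an unadjusted p under 0.05, 3 of the 4 were higher, beside 21.8% of all genes, and 0 passed. S100a9, a calcium-binding protein abundant in neutrophils, measured 24.8 in IR and 5.04 in no IR MC38 tumors, 837 in IR and 472 in no IR Pan02 tumors, and 258 in IR and 3.79 in no IR KPC tumors. Its partner S100a8 measured 42.9 in IR and 17.5 in no IR MC38 tumors, 801 in IR and 526 in no IR Pan02 tumors, and 199.5 in IR and 19.0 in no IR KPC tumors. In MC38 both pairs rest on low net counts (16.5 for S100a9 in IR tumors), while in Pan02 the log2 ratios were 0.81 ± 0.13 for S100a9 and 0.60 ± 0.13 for S100a8. S100a9 was not above the lowest value in the no IR KPC sample, so IR KPC tumors were at least 22.7-fold higher. Csf3r, the receptor for G-CSF, had log2 ratios of 1.66, 0.55 and 1.04. The 4 neutrophil markers, which include these 3 genes, summed to 101 in IR against 25.4 in no IR MC38 tumors, 1828 against 1128 in Pan02 and 514 against 49.3 in KPC tumors. The part of neutrophil number was not tested. Ptgs2, which encodes the prostaglandin synthase COX-2, measured 80.5 in IR against 60.1 in no IR MC38 tumors, 906 against 349 in Pan02 and 198 against 26.6 in KPC tumors.

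Fn1 was the member of the TGF-β and matrix list with the most uniform ratios. It encodes fibronectin and was the most abundant transcript of the list, with 2796 in IR and 1379 in no IR MC38 tumors, 12396 in IR and 6647 in no IR Pan02 tumors, and 3116 in IR and 1972 in no IR KPC tumors. Its log2 ratios were 1.01 ± 0.09, 0.90 ± 0.04 and 0.66 ± 0.13, the fit gave 0.86 ± 0.27 (SE, n = 3 against 3; limma adjusted p = 0.201), and on the median ratio scale they were 0.31, 0.85 and 0.01, with the KPC samples level. Tgfb1 measured 654 in IR against 485 in no IR MC38 tumors, 657 against 379 in Pan02 and 272 against 220.0 in KPC tumors, with log2 ratios of 0.42, 0.78 and 0.29 and -0.27, 0.72 and -0.34 on the median ratio scale, and a fit of 0.50 ± 0.22 (SE, n = 3 against 3; limma adjusted p = 0.215). The direction of Tgfb1 thus depended on the scale in MC38 and KPC and not in Pan02. Tgfb3 measured 196 in IR against 156 in no IR MC38 tumors, 358 against 208 in Pan02 and 115 against 56.9 in KPC tumors. Its fitted log2 fold change was 0.66 as deposited and 0.23 on the median ratio scale. Tgfb2 stayed at 68.5 in IR and 41.5 in no IR MC38 tumors and under 10 in the other samples, below the mean needed for the test.

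The receptors and mediators of the pathway split by tumor model. Tgfbr1 had log2 ratios of 0.22, 0.14 and 0.71 and Tgfbr2 of 0.83, 0.39 and -0.15. Smad3, which carries the signal to the nucleus, had ratios of 0.50, 0.60 and -0.43, and Smad5, a mediator of BMP signals, of -0.34, 0.09 and 0.84. Plau and its receptor Plaur, which activate plasmin at the cell surface, were higher in IR MC38 and Pan02 tumors (log2 ratios 0.75 and 0.80 for Plau, 0.75 and 1.15 for Plaur) and lower by value in IR KPC tumors (-0.12 and -0.86). Tgfbi, a TGF-β induced matrix protein, had ratios of -0.44, 0.00 and 0.29, Ski, an inhibitor of SMADs, of 0.20, 0.16 and 0.93, and Pdgfb, the growth factor of pericytes, of 0.19, -0.04 and 0.90. Its receptor Pdgfrb measured 54.9 in IR against 54.7 in no IR MC38 tumors, 129 against 62.5 in Pan02 and 45.9 against 3.79 in KPC tumors. Vtn was at or below 6.77 normalized counts in all 6 samples. Of the 15 members measured, 13 were tested, 2 were higher at an unadjusted p under 0.05, beside 21.8% of all genes, 0 passed, and the medians were 0.32, 0.60 and 0.66. In Pan02 this was above the 0.14 of all genes, and in MC38 and KPC below the 0.61 and 0.83.

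Genes of the interferon-γ response had median log2 ratios of 1.03, 0.21 and 1.10 in MC38, Pan02 and KPC, beside 0.61, 0.14 and 0.83 for all genes. Cxcl10, a chemokine for activated T cells, measured 2734 in IR and 1109 in no IR MC38 tumors, 462 in IR and 290.3 in no IR Pan02 tumors, and 514 in IR and 37.9 in no IR KPC tumors, with a fit of 1.80 ± 0.59 (SE, n = 3 against 3; limma adjusted p = 0.201). Irf1, the transcription factor through which interferon-γ acts on antigen presentation, measured 2042 in IR and 1178 in no IR MC38 tumors, 1543 in IR and 1049.7 in no IR Pan02 tumors, and 995 in IR and 338 in no IR KPC tumors. Its log2 ratios were 0.79 ± 0.10, 0.55 ± 0.09 and 1.53 ± 0.30 and the fit gave 0.96 ± 0.31 (SE, n = 3 against 3; limma adjusted p = 0.201). Ciita, the master regulator of MHC class II genes, had ratios of 1.42, 0.53 and 1.68. Cd274 encodes PD-L1, the ligand that turns off PD-1-bearing T cells, and measured 378 in IR against 82.7 in no IR MC38 tumors, 396 against 285 in Pan02 and 199 against 56.9 in KPC tumors, with a fit of 1.39 ± 0.34 (SE, n = 3 against 3; limma adjusted p = 0.185). Of 12 members tested, 6 were higher at an unadjusted p under 0.05, beside 21.8% of all genes, and 0 passed. By value, 9 of the 12 were higher in IR tumors of all 3 models, beside 42.3% of all genes. Cxcl9 was not, being lower by value in IR Pan02 tumors, as given further on.

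Since Irf1, Cxcl9 and Cd274 are textbook targets of interferon-γ, their promoters were searched for the gamma-activated site TTCNNNGAA and for the core of the interferon-stimulated response element, TTTC and TTTC set 2 bases apart, on both strands. The first reads the same on both strands. One of the windows of Irf1 held a match. It covers chr11:53769764-53770063 of GRCm38.p6 on the plus strand, 250 bases before to 50 after a start of the gene in RefSeq, and is shown because it is the only match, with the motif in capitals, 90 to 82 bases before the start.
Irf1 promoter: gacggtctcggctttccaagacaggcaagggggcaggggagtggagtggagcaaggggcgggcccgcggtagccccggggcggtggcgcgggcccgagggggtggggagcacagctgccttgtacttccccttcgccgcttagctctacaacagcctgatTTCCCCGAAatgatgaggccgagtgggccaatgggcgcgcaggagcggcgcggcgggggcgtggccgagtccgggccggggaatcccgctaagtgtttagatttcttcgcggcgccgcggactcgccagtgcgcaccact
The other window of Irf1 and those of Cxcl9 and Cd274 held neither motif. Of all 32851 windows of 300 bases, 8.30% held TTCNNNGAA and 3.44% held the pair of TTTC.

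Genes that interferons of any type induce had a median log2 ratio below that of all genes in Pan02 and above it in MC38 and KPC. Bst2, which tethers budding virus, measured 4353 in IR against 1904 in no IR MC38 tumors, 1665 against 1781 in Pan02 and 1135 against 629.5 in KPC tumors. Irgm1, an interferon-induced GTPase, had log2 ratios of 1.55, 0.07 and 1.22, Ddx58, the RNA sensor RIG-I, of 0.87, 0.24 and 1.22, and Ifi35 of 0.93, -0.03 and 1.15. Each of these 4 was higher in IR than in no IR MC38 and KPC tumors, and their Pan02 ratios lay within 0.24 of 0. Ifitm1, an interferon-induced membrane protein, was higher in IR MC38 tumors and lower by value in the others, with ratios of 2.23, -0.89 and -2.77. The medians over 13 members were 1.09, -0.10 and 1.09, and the difference between the models was not tested.

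Both lists of antigen presentation also had medians below that of all genes in Pan02 and above it in MC38 and KPC. B2m, the light chain of MHC class I, measured 31770.5 in IR against 12684 in no IR MC38 tumors, 23377 against 28279 in Pan02 and 11874 against 6652 in KPC tumors, and H2-K1, a heavy chain, 3056 in IR against 1414 in no IR MC38 tumors, 1853 against 2515 in Pan02 and 1045 against 129 in KPC tumors. Tap1, which pumps peptides into the endoplasmic reticulum, measured 1054 in IR against 698 in no IR MC38 tumors, 693 against 857 in Pan02 and 588 against 49.3 in KPC tumors, where 13 net counts stood behind the no IR KPC value. Tapbp, which loads the peptide, was an exception in that it was higher in IR tumors of all models (log2 ratios 0.54, 0.55 and 1.58), though -0.16, 0.50 and 0.96 on the median ratio scale. Of class II, H2-Aa measured 2378 in IR against 714 in no IR MC38 tumors, 12006 against 18720.5 in Pan02 and 4663 against 2674 in KPC tumors, Cd74, the invariant chain, had ratios of 1.16, -0.12 and 1.76, H2-Ab1 of 1.13, -0.31 and 1.29, and Ctss, the protease that trims the invariant chain, of 1.28, -0.43 and 0.74. In Pan02 these 4 class II genes were lower by value in IR than in no IR tumors. The list medians were 0.90, -0.04 and 2.25 for class I and 1.16, -0.31 and 1.08 for class II.

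Transcripts of killer cells had a positive median log2 ratio in MC38 and a negative one in Pan02. Klrd1, the CD94 receptor of NK and CD8 T cells, measured 452 in IR and 81.1 in no IR MC38 tumors, 154 in IR and 237 in no IR Pan02 tumors, and 117 in IR and 79.6 in no IR KPC tumors. Prf1, which encodes perforin, measured 378 in IR against 77.2 in no IR MC38 tumors, 32.5 against 34.2 in Pan02 and 95.2 against 49.3 in KPC tumors. Gzmb, granzyme B, measured 466 in IR against 104 in no IR MC38 tumors, 44.8 against 59.6 in Pan02 and 101 against 106 in KPC tumors, and Gzma had log2 ratios of 0.47, -0.90 and -0.29. Klrk1, the NKG2D receptor, had ratios of 1.22, -1.14 and 1.67. The median over 8 members was 1.59, -0.37 and 0.80, the widest gap to all genes in MC38 (0.61) of the lists with 5 or more members tested. The summed markers of T cells differed in the direction of this median in each model. The 4 of 5 on the panel, Cd3d among them, came to 166 in IR against 34.0 in no IR MC38 tumors. They came to 168 against 247 in Pan02 and 100.3 against 64.5 in KPC tumors, where Cd3d itself was lower by value. Cd8a and Cd8b1, the markers of cytotoxic T cells, summed to 34.6 in IR against 3.88 in no IR MC38 tumors. In Pan02 they summed to 94.4 against 64.9, opposite to the median there, and in KPC to 40.3 against 11.4. The part of T cell number in these differences was not tested.

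Other T cell genes were sparse. Thy1, found on T cells and fibroblasts, measured 273 in IR against 88.9 in no IR MC38 tumors, 126 against 104 in Pan02 and 90.2 against 19.0 in KPC tumors, and Lck, the kinase of the T cell receptor, 89.5 in IR against 28.3 in no IR MC38 tumors, 88.7 against 117 in Pan02 and 57.9 against 41.7 in KPC tumors. Tcf7, a factor of memory T cells, had ratios of 0.86, 0.25 and -0.46, and Cd3d of 1.58, -0.71 and -0.62. Of 16 members measured in the T cell list, only 3 had a mean of 50, and of 12 in the list of regulatory T cells and checkpoints, 3 did. Pdcd1, the PD-1 receptor, measured 57.9 in IR against 8.92 in no IR MC38 tumors, 64.3 against 74.9 in Pan02 and 36.8 against 15.2 in KPC tumors. Entpd1, the ectonucleotidase CD39, had ratios of 1.19, -0.25 and 0.72, Ikzf2 of -0.13, -0.07 and 1.41 and Cd244, an NK cell receptor, of 0.93, -0.31 and 2.02. None of the 11 B cell genes reached a mean of 50, and the highest, Blnk, lay between 18.1 and 41.5 normalized counts.

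Chemokines of lymphocytes differed between the models. Ccl5, which attracts T cells and monocytes, measured 769 in IR against 359.7 in no IR MC38 tumors, 182 against 309 in Pan02 and 239 against 133 in KPC tumors. Ccl3 measured 115 in IR against 19.0 in no IR MC38 tumors, 37.4 against 63.7 in Pan02 and 23.7 against 91.0 in KPC tumors, opposite in MC38 and KPC. Xcl1, which attracts cross-presenting dendritic cells, had ratios of -0.01, 0.49 and 2.50. Cxcl12, made by stromal cells, measured 201 in IR against 4.27 in no IR MC38 tumors, 38.2 against 33.0 in Pan02 and 5.04 against 22.8 in KPC tumors. The medians over 4 members tested were 1.59, -0.24 and -0.16.

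Myeloid genes as a list lay below the median of all genes in MC38 and Pan02 and above it in KPC. Tyrobp, the adaptor of activating receptors, had log2 ratios of 1.06, 0.02 and 1.0. Fcgr4, an activating receptor for IgG, measured 948 in IR against 299.9 in no IR MC38 tumors, 1152 against 1629 in Pan02 and 567 against 75.8 in KPC tumors, Fcgr3 had ratios of 0.24, 0.33 and 2.17, and Ly86, the partner of RP105, a relative of the LPS sensor TLR4, of 0.28, 0.31 and 2.45. The medians over 12 members were 0.40, 0.09 and 1.44. The macrophage marker sums were higher in IR tumors of each model. They came to 4014 against 2672 in MC38, 6223 against 4849 in Pan02 and 2627 against 959.5 in KPC tumors. Of these markers, Cd14 was lower by value in IR Pan02 and KPC tumors. The part of macrophage number in the list medians was not tested. Complement C1qa and C1qb, which macrophages make, had ratios of 0.18, 0.88 and 1.93 and 0.84, 0.15 and 1.39. C3 had 1.21, -0.10 and 1.18 and C1s 1.32, -0.47 and -0.35. In MC38, 10 of 12 complement genes considered were at least 2-fold higher in IR tumors, beside 31.1% of all genes. In Pan02, 0 of 10 were, beside 3.15%, and in KPC 5 of 10 were higher, beside 41.2%, and 1 was lower, beside 7.12%.

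Genes of the DNA damage response were not uniform among the tumor models. Cdkn1a, the p53 target that stops the cell cycle, measured 589 in IR and 276 in no IR MC38 tumors, 303 in IR and 448 in no IR Pan02 tumors, and 109.8 in IR and 216 in no IR KPC tumors. Its log2 ratios were 1.07 ± 0.20, -0.55 ± 0.17 and -0.92 ± 0.40, so it was higher in IR MC38 tumors and lower by value in IR Pan02 and KPC tumors, beyond counting error in each pair. The fit gave -0.13 ± 0.39 (SE, n = 3 against 3; limma adjusted p = 0.801). Bax, which opens mitochondria in apoptosis, had ratios of -0.24, 0.04 and 1.47, and Fas, a death receptor, of 1.17, -0.27 and 1.01. Trp53 itself measured 187 in IR against 166 in no IR MC38 tumors, 321 against 172 in Pan02 and 112 against 49.3 in KPC tumors. Atm had ratios of 0.59, 0.17 and 1.03, Bid of 0.22, 0.39 and 1.55 and Pml, a scaffold of nuclear bodies, of 0.48, 0.07 and 0.11. Cul9 lay at or below 14.8 normalized counts in every sample. Of the 7 members tested, 2 were higher at an unadjusted p under 0.05, beside 21.8% of all genes, 0 passed, and the medians were 0.48, 0.07 and 1.03, beside 0.61, 0.14 and 0.83.

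Apoptosis machinery and inflammatory signaling stayed near the medians of all genes in MC38 and Pan02. Casp8, the initiator caspase of death receptors, had log2 ratios of 0.33, 0.28 and 0.82 and Bcap31 of 0.68, 0.44 and 1.39. Among NF-kB subunits, Nfkb2 had 0.29, 0.42 and 0.40, Nfkb1 0.61, 0.18 and 1.06 and Rela -0.52, 0.13 and 0.71. Of sensors of danger signals, Tlr4 had 0.98, 0.06 and 0.91, Myd88 0.88, -0.52 and 0.45, Irak4 0.11, 0.19 and 2.07 and Irak1 0.33, 0.77 and -0.02. The medians of the 3 lists were 0.68, 0.17 and 0.82 for apoptosis, 0.40, 0.18 and 1.06 for NF-kB and inflammatory cytokines and 0.59, 0.30 and 1.33 for pattern recognition.

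The 4 vascular genes tested had higher values in IR than in no IR MC38 and KPC tumors. Cd34, found on endothelium and stem cells, measured 2611 in IR and 1453 in no IR MC38 tumors, 421 in IR and 289 in no IR Pan02 tumors, and 1056 in IR and 15.2 in no IR KPC tumors. The KPC ratio of 5.40 ± 0.85 was the largest in KPC among genes with a value of at least 100 and rests on 4 net counts in no IR KPC tumors, while in MC38 and Pan02 the ratios were 0.84 and 0.53. Pecam1 measured 487 in IR against 168 in no IR MC38 tumors, 170.1 against 221 in Pan02 and 107 against 56.9 in KPC tumors. Vcam1, which binds leukocytes to vessels, had ratios of 0.80, 0.02 and 2.26 and Icam1 of 0.75, 0.02 and 0.44. The medians over 4 members were 0.82, 0.02 and 1.54. Map4k4, a kinase upstream of JNK, was also among the 12 genes whose smallest ratio was highest, with ratios of 0.59, 0.53 and 1.51. Cd97, an adhesion receptor of leukocytes now named Adgre5, had 1.20, 1.36 and 0.51.

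**Figure D3:**
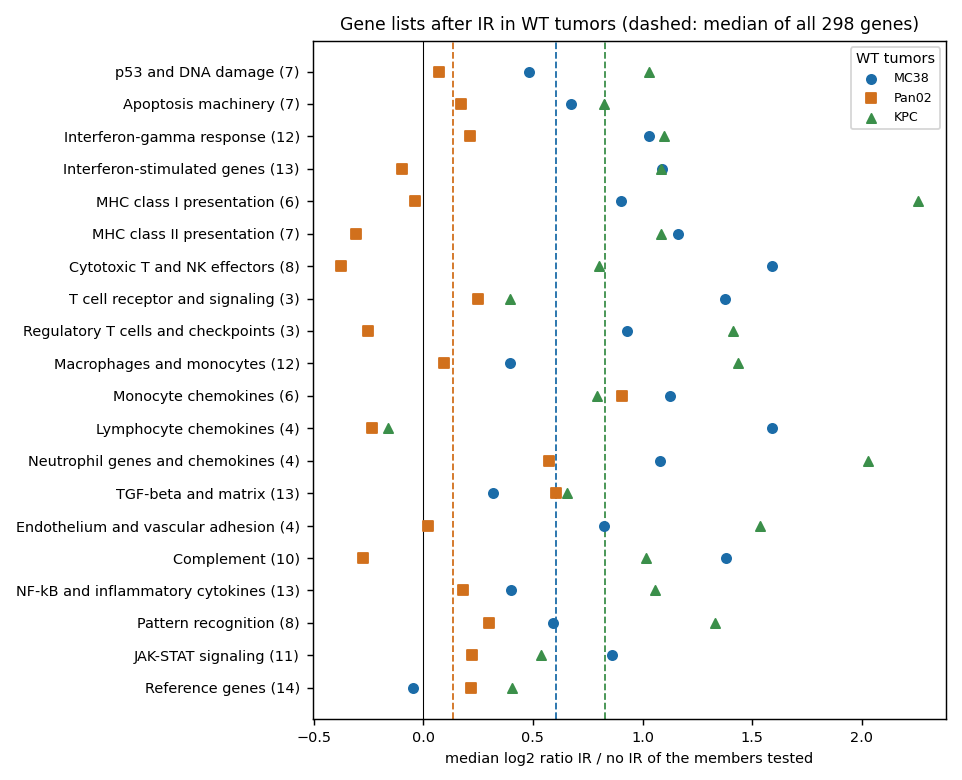
Median log2 ratio of IR over no IR for each gene list (members tested in parentheses) in MC38 (circles), Pan02 (squares) and KPC (triangles) WT tumors, with the median of all 298 genes of each model as a dashed line (0.61, 0.14 and 0.83). Pan02 lies below 0 for MHC class II and cytotoxic genes, where MC38 and KPC lie above 0.

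Only 3 genes with a mean of at least 100 were lower in IR tumors of all models. Mif, a cytokine that holds macrophages in place, measured 1777 in IR and 2276 in no IR MC38 tumors, 1205 in IR and 1620.2 in no IR Pan02 tumors, and 840.4 in IR and 1138 in no IR KPC tumors, with a fit of -0.40 ± 0.18 (SE, n = 3 against 3; limma adjusted p = 0.215). Gapdh, a glycolytic enzyme and panel reference gene, measured 17657 in IR and 19428 in no IR MC38 tumors, 11854 in IR and 16948 in no IR Pan02 tumors, and 6779 in IR and 12185 in no IR KPC tumors. Its ratios were -0.14 ± 0.03, -0.52 ± 0.03 and -0.84 ± 0.06 and the fit gave -0.50 ± 0.19 (SE, n = 3 against 3; limma adjusted p = 0.201). Fkbp5, a target of the glucocorticoid receptor, measured 157 in IR against 201 in no IR MC38 tumors, 77.3 against 329 in Pan02 and 59.0 against 60.7 in KPC tumors. Its difference stood in Pan02 (log2 ratio -1.96 ± 0.28), while the KPC values were level.

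The reference genes differed among themselves within each pair, most widely in KPC, so they did not fix the scale of a pair. In MC38, the 14 reference genes had a median log2 ratio of -0.05, in Pan02 of 0.22 and in KPC of 0.40. Rpl19, a ribosomal protein gene, had ratios of 0.18, 0.07 and 0.64, and Ppia, cyclophilin A, of -0.02, 0.30 and 0.39. In KPC the genes ranged from Gapdh at -0.84 and Polr2a at -0.77 to Gusb at 1.39 and Oaz1 at 1.34. Eef1g and Hprt lay at 1.18 and 1.19 there, Tubb5 at -0.43 and Sdha at -0.42, and G6pdx, Tbp, Polr1b and Alas1 between -0.20 and 0.81. In MC38 the 14 genes lay between -0.27 and 0.48, and in Pan02 between -0.52 and 0.80.

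Within MC38, the highest ratios belonged to Serping1, Cxcl12, Ccl8, Cxcl9 and Il17a. Serping1, the inhibitor of the first complement component, was 366 in IR and 5.04 in no IR MC38 tumors (log2 ratio 4.65 ± 0.41). Cxcl12 was 201 in IR and 4.27 in no IR MC38 tumors (3.89 ± 0.43), Ccl8 1896 in IR and 205 in no IR MC38 tumors (3.15 ± 0.18) and Cxcl9, which attracts CXCR3-bearing T cells, 1704 in IR and 206 in no IR MC38 tumors (2.99 ± 0.19). Il17a, the cytokine of Th17 cells, was 100.0 in IR and 5.82 in no IR MC38 tumors (2.80 ± 0.49). The 1 gene at least 2-fold lower was Cx3cr1, the fractalkine receptor of monocytes and macrophages, at 41.4 in IR and 143 in no IR MC38 tumors (-1.58 ± 0.48).

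Within Pan02, Ccl12 had the highest ratio (1.54 ± 0.19), followed by Socs1 (1.42 ± 0.25), Cd97 (1.36), Ptgs2 (1.35) and Lif (1.34). Lif, a cytokine of the IL-6 family, measured 53.4 in IR against 52.4 in no IR MC38 tumors, 116 against 39.5 in Pan02 and 37.8 against 11.4 in KPC tumors. The lower genes with a value of at least 100 were Fkbp5, Il1r2 and Klrk1, the last at 74.0 in IR and 176 in no IR Pan02 tumors (-1.14 ± 0.30).

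Within KPC, the highest ratios belonged to Cd34, Casp1, S100a9, Il7 and Cxcl10. Il7, a growth factor of lymphocytes, was 161 in IR and 3.79 in no IR KPC tumors, the lowest value of the no IR sample, so IR tumors were at least 14.2-fold higher. Casp1 had 1330 net counts in IR and 4 in no IR KPC tumors. The genes lowest in IR relative to no IR tumors were Il17a at 2.52 in IR and 125 in no IR KPC tumors (-3.43 ± 0.52), Ccl8 at 277 in IR and 3026 in no IR KPC tumors (-3.40 ± 0.15), Il12a, a subunit of IL-12, at 2.02 in IR and 114 in no IR KPC tumors (-3.36 ± 0.53), Cd163, a scavenger receptor of macrophages, at 5.54 in IR and 106 in no IR KPC tumors (-2.90 ± 0.58) and Ifitm1 at 51.4 in IR and 409.6 in no IR KPC tumors (-2.77 ± 0.35). The Sirpα-/- pair of KPC, whose no IR sample was also of low yield (12025 net counts), had log2 ratios of 4.03 for Cd34, 2.83 for Casp1, 4.58 for S100a9, 3.60 for Il7 and 4.28 for Cxcl10. For the lower genes it had -2.64 for Il17a, -2.97 for Ccl8, -4.13 for Il12a, -1.50 for Ifitm1 and -0.83 for Cd163, the last well short of its WT ratio.

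Across genes, the IR effects of the tumor models had little in common. Pearson's r of the log2 ratios over 298 genes was -0.22 between MC38 and Pan02, -0.14 between MC38 and KPC and 0.18 between Pan02 and KPC, as a description, since genes are not replicates. Ratios had opposite signs for 129 of the 298 genes between MC38 and Pan02, 92 between MC38 and KPC and 117 between Pan02 and KPC. Among genes with a value of at least 50 in each of MC38 and KPC, 24 were at least 2-fold higher in both. Taken singly, 31.1% of genes were so in MC38 and 41.2% in KPC, and the overlap was not tested. The 8 genes with the largest range of ratios were Serping1, Ccl8, Ifitm1, Cd34, Cx3cr1, Casp1, Tap1 and Cxcl9. Of these, Serping1, Ccl8 and Ifitm1 were higher in IR MC38 and lower in IR KPC tumors, and Cx3cr1 was the reverse (41.4 in IR against 143 in no IR MC38 tumors, 493 against 276 in Pan02 and 149 against 7.58 in KPC tumors). Cxcl9 was higher in IR MC38 tumors and lower by value in IR Pan02 tumors, at 1369 in IR and 2116 in no IR Pan02 tumors (-0.62 ± 0.08).

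**Figure D4:**
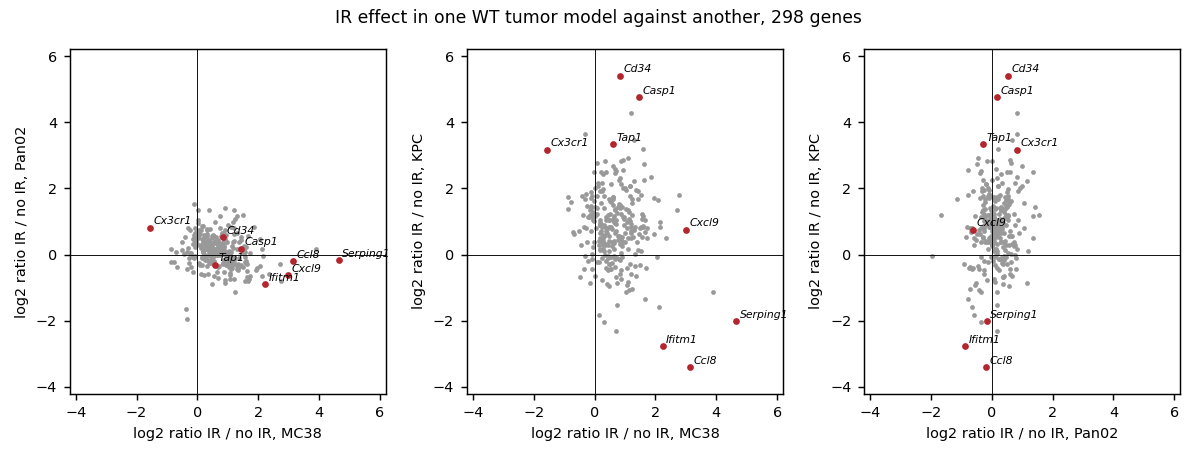
Log2 ratio of IR over no IR in one WT tumor model against another for 298 genes (grey), with the 8 genes of largest range between models in red. Few Pan02 ratios reach 2-fold in either direction, and Serping1, Ccl8 and Ifitm1 lie at positive MC38 and negative KPC ratios.

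Genes with opposite ratios in MC38 and KPC were mostly higher in IR MC38 and in no IR KPC tumors, the sample of each pair in which a net count was worth more (1.50 in IR against 0.776 in no IR MC38 tumors, and 0.504 in IR against 3.79 in no IR KPC tumors). Of the 10 named genes at least 2-fold higher in one model and lower in another, 7 had this order. Over all 561 genes of the panel, 21 were at least 2-fold higher in IR MC38 and lower in IR KPC tumors, and 1, Cx3cr1, was the reverse. Il17a, for example, had 66.5 net counts in IR and 7.5 in no IR MC38 tumors, and 5 in IR and 33 in no IR KPC tumors. Without a filter, 142 of the 561 genes were at least 2-fold higher in IR MC38 tumors (25.31%) and 1 was lower (0.178%). In KPC, 145 were higher (25.85%) and 38 lower (6.77%). With 1 lower gene in MC38, the reverse order could hold 1 gene at most, whatever the cause. The part of sample yield in these opposite ratios was not tested. With the log2 value of a count added to the fit as a covariate, 0 genes passed, the smallest adjusted p was 0.121, and the median log2 fold change was 0.47.

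The WT effect was set beside that in Sirpα-/- tumors. The difference between the IR effects of the genotypes passed the limma test for 0 of 298 genes (0%). At an unadjusted p under 0.05 there were 4 genes (1.34%), and the smallest adjusted p was 0.987. These 298 genes were picked by their mean in the WT samples, so genes abundant only in Sirpα-/- tumors were not tested. The difference of 2 effects also has a larger error than 1 effect, so the result does not show that the genotypes respond alike. Of the 12 genes whose smallest WT ratio was highest, 10 were also higher in all 3 Sirpα-/- pairs, beside 56.4% of all genes. The exceptions were Ccl2 and Fn1. In Sirpα-/- tumors Ccl2 had log2 ratios of 2.13, 1.62 and -0.61 and Fn1 of -0.23, 0.45 and 0.90. Of the 3 genes lower in WT, Gapdh alone was lower in all Sirpα-/- pairs. Tgfb1 had ratios of 0.23, 0.17 and 0.25 and Ccl12 of 1.16, 0.81 and 1.75 there.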

How the data were processed

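The authors counted probes on an nCounter SPRINT Profiler and analysed them in nSolver 2.6. The deposited signal is normalized counts: nSolver took off the negative-control background, then multiplied each sample by a positive-control factor. The methods name no step that uses reference genes. Both deposited tables hold the same 6732 of 6732 gene values, so 1 was used, and 0 columns were left unmapped. Net counts were recovered from the steps between values (tolerance 0.1 count) and cover counting error only.

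Across models, log2(value + 10) of all 12 samples was modelled with limma 3.58.1 in R 4.3.3 as 4 groups, with tumor model as block, since samples of 1 model share a cell line, and a variance trend. Genes needed a mean of 50 over the 6 WT samples, and were called at 0.05 after Benjamini-Hochberg adjustment. The pseudocount shrinks fold changes of low genes. Within a tumor model, 2-fold was taken where the larger value was at least 50. Where both samples of a pair had counts, the delta method gave 95% intervals. In data simulated for this comparison over 298 genes, the fit called 46 of 100 genes with a true log2 change of 1, 99 of 100 with 2 and 1 of 98 with none; noise was drawn for each gene alone and changes were alike in each model, which need not hold for real tumors.

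Other settings tried were 2 scalings (14 reference genes; median ratio), pseudocounts of 1 and 30, other filters, fewer samples, no block, no trend, the t-test of the methods (paired here by tumor model, which the methods do not state) and edgeR 4.0.16 on rounded recovered counts; a fit with the value of a count as covariate was chosen after the data were seen. Genes named are those with the largest smallest ratio over the 3 models (up to 12 in each direction, mean of at least 100), the 5 largest differences per model, the 8 with the largest range between models, the 4 most abundant of each list, all members of the p53, TGF-β and monocyte chemokine lists, and the reference genes. The members and the 21 gene lists were chosen with earlier results of these data known. Symbols are those deposited; of 561, 545 are current, 14 are older names and 2 were not found in RefSeq (GRCm38.p6), the source of the promoters. Plots come from Python 3.11.15 with matplotlib 3.10.9. Not analysed here were Sirpa, Tnfsf4 and Ifna4. Results on some genes that the naming rule takes in are not reported here.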

Additional observations from a re-analysis of the deposited data

Results flagged for a closer look

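Of the 126 genes named, 10 were at least 2-fold higher in IR than in no IR tumors of one WT model and at least 2-fold lower in another. The difference was not tested, since each model had 1 pair. The gap between the log2 ratios of MC38 and KPC, higher in MC38, was 6.67 for Serping1, 6.55 for Ccl8, 6.23 for Il17a, 5.01 for Cxcl12, 5.0 for Ifitm1, 4.75 for Cd163 and 3.69 for Ccl3. Cx3cr1 was the reverse, with a gap of 4.75 between KPC and MC38. Between KPC and Pan02, higher in KPC, the gap was 2.86 for Il1r2 and 2.81 for Klrk1.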

How the results depend on the processing

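Across tumor models 0 genes were called higher and 0 lower under all 16 alternatives, leaving out each tumor model included (0 to 0 genes in each direction), with a smallest adjusted p between 0.0802 (without Pan02) and 0.888 (no replicate block). Counts at an unadjusted p under 0.05 varied more: 25 higher and 4 lower with reference gene scaling, 7 and 6 with median ratio scaling, 21 and 0 with the WT samples alone, 15 and 1 by the methods' t-test run in pairs, and 37, 80 and 25 higher without MC38, Pan02 or KPC. Without the replicate block, that is with tumor model left out of the fit, 0 genes were higher and 0 lower even at that p. Of 328 values of 21 genes under these alternatives, 327 kept their direction. Their side of the threshold could not differ, since 0 genes passed under any setting. The other filters, the WT samples alone, no block, no trend and the paired t-test leave a fold change identical by construction. Leaving out a model could not reverse the 15 genes chosen for 1 direction in all models. Tgfb1 reversed, at -0.015 by edgeR. The cause was not tested.

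Within tumor models, MC38 had 77 genes higher and 1 lower with reference gene scaling. The count of MC38 genes higher was 20 with median ratio scaling and 52 with both values at least 50. The count of those lower was 13 and 0. In Pan02, 5 were higher with reference gene scaling and 2 lower with a pseudocount of 30. In KPC, median ratio scaling gave 71 higher and 58 lower, reference gene scaling 43 lower, both values at least 50 gave 56 higher and 6 lower, and no filter 38 lower. The stricter filter considers fewer genes. Of 120 list medians under both scalings, 96 differed by less than their spread over tumor models. Depth limits KPC most, where a value under 11.4 normalized counts is below the floor of the no IR sample.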
